A study of Homo sapiens with 6 samples.

Results

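Fatty acids are built in the cytosol from acetyl-CoA, and the genes of that route were followed here in irradiated breast cancer cells. The 10 genes were taken by name from the deposited expression table, which lists 58735 genes. They were ACLY, ACSS2, ACACA, FASN, ELOVL5, ELOVL6, SCD, FADS1, FADS2 and SREBF1. Each name matched a single row. RNA was measured in 6 libraries of MDA-MB-231, a cell line of human origin, derived from a basal-like breast tumour and mesenchymal in character. In 3 libraries the cells had received 0 Gy, and in the other 3 they were collected 24 h after 10 Gy of gamma rays from a caesium source. The labels name every library SCR and give the genotype as WT, and the study describes SCR cells as carrying a non-targeting shRNA, so this construct is common to both groups. All libraries come from a single cell line, and the labels do not say whether the 3 libraries of a dose came from separate cultures. The p-values therefore measure only the spread between these libraries, which may be technical.

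ATP citrate lyase (ACLY) and acetyl-CoA synthetase (ACSS2) supply the acetyl-CoA, from citrate and from acetate. Acetyl-CoA carboxylase (ACACA) turns it into malonyl-CoA in the committed step, and fatty acid synthase (FASN) joins these units into palmitate. Elongases (ELOVL5, ELOVL6) lengthen the chain and desaturases (SCD, FADS1, FADS2) put double bonds into it. SREBF1 encodes SREBP1, the transcription factor best known for switching on this set. The balance between monounsaturated chains, which SCD makes, and polyunsaturated chains, which FADS1 and FADS2 complete, is of interest in irradiated cells because polyunsaturated chains in membranes are the ones that peroxidise in ferroptosis.

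The stretch of DNA before the start site of 4 of these genes is shown because SCD and SREBF1 went up after irradiation and the neighbouring genes FADS1 and FADS2 differed in their call. The sequences are taken from RefSeq promoter windows of GRCh38.p14, from 250 bases before to 50 bases after a start site. Each is printed only as far as it lies before that start site and before any GENCODE 29 exon within its window. Each reads 5′ to 3′ on the strand of its gene, and capitals mark CCAAT, the letters that NF-Y binds, and GGGCGG, the letters that Sp1 binds, on either strand, so that they may read ATTGG or CCGCCC. In these 4 stretches no match of one motif shared a base with a match of the other. The SCD stretch is chr10:100346983-100347123 (plus strand) and that of SREBF1 is chr17:17837003-17837236 (minus strand). That of FADS1 is chr11:61817198-61817253 (minus strand) and that of FADS2 is chr11:61816154-61816255 (plus strand). The FADS1 and FADS2 stretches lie inside the annotated spans of both genes (chr11:61799625-61829318 and chr11:61792980-61867354), so annotated exons of their own gene lie further upstream. The FADS2 stretch also runs over its other RefSeq start site (chr11:61816203).
SCD: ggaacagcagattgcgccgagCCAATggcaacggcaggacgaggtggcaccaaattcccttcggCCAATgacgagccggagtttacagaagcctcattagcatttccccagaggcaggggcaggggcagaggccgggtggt
SREBF1: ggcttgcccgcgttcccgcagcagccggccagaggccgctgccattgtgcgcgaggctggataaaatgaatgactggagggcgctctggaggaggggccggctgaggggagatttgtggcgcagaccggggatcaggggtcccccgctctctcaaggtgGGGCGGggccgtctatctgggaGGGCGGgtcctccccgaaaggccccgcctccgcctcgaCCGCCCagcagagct
FADS1: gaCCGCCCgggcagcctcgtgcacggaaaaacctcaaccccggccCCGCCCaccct
FADS2: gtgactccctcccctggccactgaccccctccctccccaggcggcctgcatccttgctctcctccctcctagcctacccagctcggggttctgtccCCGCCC
The SCD stretch held 2 CCAAT and 0 GGGCGG matches, and that of SREBF1 held 0 CCAAT and 3 GGGCGG matches. The SCD stretch stops at an annotated exon, and its whole window of 300 bases held 2 GGGCGG matches, both past the printed part. The 0 therefore reflects where the stretch was cut, and GGGCGG occurred in the windows of both genes. The whole SREBF1 window held the same counts as its stretch. The stretch printed for FADS1 held 2 GGGCGG matches and that of FADS2 held 1, and neither held CCAAT. The whole window behind the FADS2 stretch held 1 CCAAT match, past the printed part.

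RefSeq windows were at hand for 9 of the 10 genes (all but FASN), 14 windows in all. Over the whole 300 bases, GGGCGG occurred in 11 of these 14 windows (8 of the 9 genes), and in 45.0% of all 35116 windows. CCAAT occurred in 8 of the 14 (6 genes), and in 34.6% of all windows. Windows of a gene can overlap and are not independent. The E-box CACGTG was found in 1 of the 14, that of ELOVL5, against 7.26% of all windows. TCACNCCAC, the letters of a classical sterol regulatory element to which SREBPs bind, was found in 0 of the 14 and in 1.13% of all windows. The element of CNC and small MAF proteins was likewise found in 0 of the 14 and in 3.18% of all windows. Both strands were searched throughout. A missing match says only that these letters are not in these windows.

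The authors deposited FPKM values, which are fragments scaled to gene length and sequencing depth. The length counts all annotated exons of a gene, which may be more than its transcripts in these cells hold. Levels of different genes, and their order, can be set side by side only with that limit. Whole reads recovered from them numbered between 15643641 and 28861781 per library. Libraries were correlated on log2(FPKM + 1) over the 12128 genes whose mean reached 1 FPKM. The correlations were at least 0.992 within a dose and at most 0.989 between doses, so no library stood apart from its group. The depth each library had been divided by was 0.973 to 0.991 times its recovered reads at 0 Gy and 1.03 to 1.04 times at 10 Gy, so a scaling that moves with the dose is already in the values. The 5 mesenchymal markers VIM, CD44, AXL, CAV1 and MSN summed to between 953 and 968 FPKM at 0 Gy and between 781 and 804 FPKM at 10 Gy. All 5 were called lower, at log2 changes from -0.49 (AXL) to -0.11 (CD44). Of all genes tested, 23.7% were called lower, and 35.2% of those with a mean of at least 5 FPKM at 0 Gy. Whether these 5 calls hold under other scalings is not reported here. Of 5 luminal and epithelial markers 3 were under 1 FPKM, and the 5 summed to between 4.45 and 5.01 FPKM at 0 Gy and between 4.43 and 4.99 FPKM at 10 Gy. Of 8 markers of leukocytes, endothelium, hepatocytes and adipocytes 7 were under 1 FPKM, and the 8 summed to between 1.38 and 1.47 FPKM at 0 Gy and between 2.06 and 2.17 FPKM at 10 Gy. PGR, CD3E and ADIPOQ were among those at 0 in every library, and PECAM1, the endothelial marker above 1 FPKM, was called higher (1.22 and 1.94 FPKM). The part of these marker sums in the changes of the lipid genes was not tested.

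In cells that had not been irradiated, ACLY, FASN and ELOVL5 were the most abundant of the 10. ACLY was the highest at 70.7 ± 3.70 FPKM (SD, n = 3), followed by FASN at 62.7 ± 1.58 and ELOVL5 at 59.7 ± 1.16 FPKM. These 3 levels stood above at least 94.0% of the 12128 genes tested, those whose mean over the libraries reached 1 FPKM. SCD followed at 31.7 ± 1.84 FPKM, and FADS1 and SREBF1 at 18.9 ± 1.35 and 17.2 ± 0.587 FPKM. FADS2 and ELOVL6 lay at 12.4 ± 0.700 and 11.8 ± 0.457 FPKM. ACACA, the committed step, and ACSS2, the acetate route, were the lowest at 7.66 ± 0.828 and 7.01 ± 0.269 FPKM. In this order the libraries of neighbours overlapped for FADS1 and SREBF1, for FADS2 and ELOVL6 and for ACACA and ACSS2, and did not overlap for any other pair of neighbours.

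**Figure D1:**
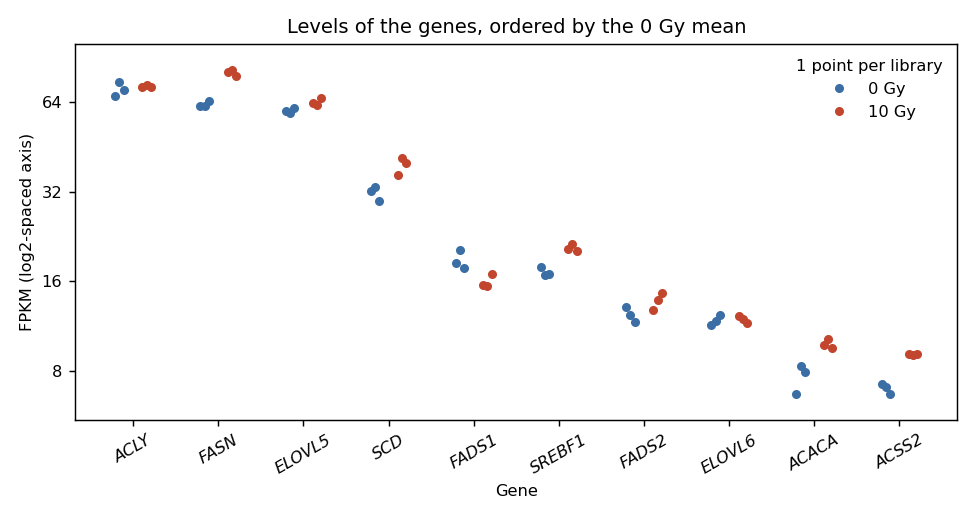
Level of each of the 10 genes in FPKM (logarithmic axis) in every library; points are libraries, with the 3 libraries at 0 Gy and the 3 at 10 Gy in separate colours. ACLY, FASN and ELOVL5 lie highest at both doses, FASN moves from below ACLY (62.7 against 70.7 FPKM) to above it (80.2 against 72.1 FPKM), and SREBF1 passes FADS1.

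After 10 Gy the genes from the start of the route to palmitate and oleate were mostly higher, with ratios of means from 1.20 to 1.3 for those called, and FADS1 was lower. Of the 10 genes, 5 were called higher (FASN, ACSS2, ACACA, SCD and SREBF1), 1 was called lower (FADS1) and 4 were not called (ACLY, ELOVL5, ELOVL6 and FADS2). Calls are Benjamini-Hochberg adjusted p-values under 0.05 from limma on log2(FPKM + 1), fitted over all 12128 genes. Among all genes tested, 11.9% were called higher and 23.7% were called lower, 35.6% in all. On the scale of log2(FPKM + 1) as deposited, 0 of the 10 changed by at least 1.3-fold, against 5.77% of all genes that were called and did, 2.82% higher and 2.95% lower. That count depends on the scaling: 5 of the 10 were called and at least 1.3-fold higher with TPM and 4 with upper quartile scaling. With recovered reads as CPM it was 3, and with median-of-ratios scaling 2. Of all genes, 10.1%, 5.95%, 9.52% and 5.57% were called at 1.3-fold in either direction under these scalings, in that order. Without the 0 Gy library of replicate 2 the count of the 10 was 1 (ACACA), against 6.44% of all genes. The libraries of the 2 doses did not overlap for 7 of the 10, higher for 6 and lower for 1, against 51.9% of all genes, 19.1% higher and 32.8% lower. The median log2 change of the 10 genes was 0.20, and that of all genes was -0.04. In whole-cell RNA a larger share of cells that express a gene and more RNA per cell cannot be told apart.

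Of the 10 genes, 4 (ACLY, ACACA, FASN and SREBF1) lie on chromosome 17, where 18.8% of 778 genes tested were called higher and 24.4% lower. All 10 genes had means of at least 5 FPKM at 0 Gy. Of the 7288 genes tested at that level, 10.1% were called higher and 35.2% lower. Summed over the 10 genes, the level was 299.8 ± 4.78 FPKM at 0 Gy and 336.8 ± 4.04 FPKM at 10 Gy (SD, n = 3).

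**Figure D2:**
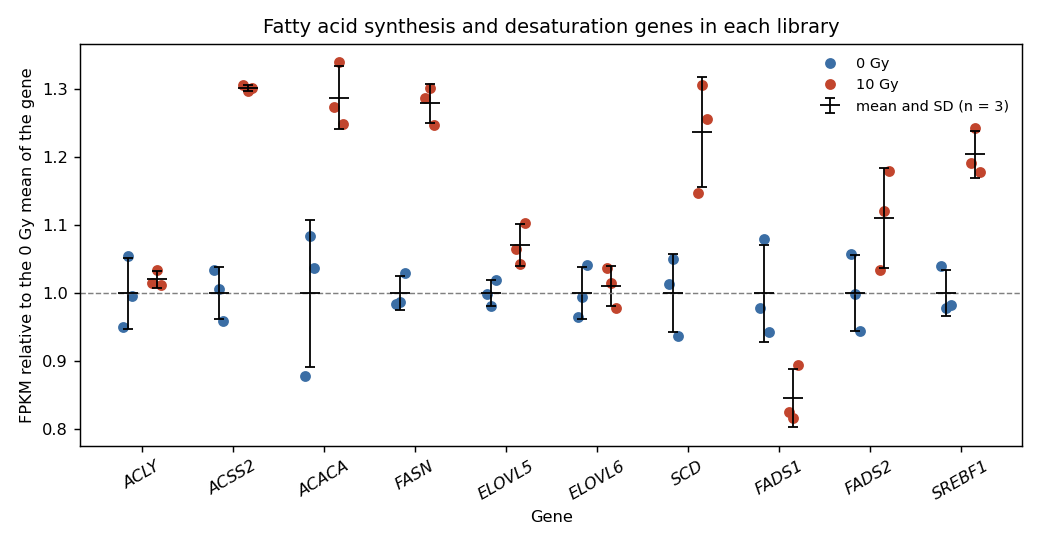
Level of each gene in each of the 6 libraries relative to its own mean at 0 Gy (linear axis); the dashed line at 1 is that mean, coloured points are libraries, and black bars are means with SD (n = 3). The 10 Gy libraries of FASN lie between 1.25 and 1.3, those of FADS1 between 0.816 and 0.894, and those of ACLY between 1.01 and 1.03, inside the spread of its 0 Gy libraries.

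Of the 2 sources of acetyl-CoA, the acetate enzyme was called higher and the citrate enzyme was not called. ACSS2 (ENSG00000131069, chr20:34872146-34927962, plus strand), which makes acetyl-CoA from acetate, read 7.25, 7.06 and 6.72 FPKM in the libraries at 0 Gy and 9.15, 9.09 and 9.13 FPKM at 10 Gy. Every irradiated library was above every control, and the irradiated libraries were nearly equal to each other. The ratio of the means was 1.3, and the log2 change was 0.34 (SE 0.038, 95% interval 0.25 to 0.43, adjusted p = 0.0012). ACLY (ENSG00000131473, chr17:41866908-41930542, minus strand), which makes acetyl-CoA from citrate, read 67.1, 74.5 and 70.3 FPKM at 0 Gy and 71.7, 73.1 and 71.5 FPKM at 10 Gy. Its groups overlapped, with the controls on either side of the irradiated libraries. Its log2 change of 0.03 had a 95% interval from -0.07 to 0.13 (adjusted p = 0.610), so a rise of the size seen for ACSS2 lies outside that interval. With TPM values, in which each library sums to the same total, ACLY was called higher, at a log2 change of 0.16 (adjusted p = 0.0446). ACLY shares 156 exon bases with the antisense gene AC125257.2, which was at 0 FPKM at both doses.

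Both enzymes between acetyl-CoA and palmitate rose. FASN (ENSG00000169710, chr17:82078333-82098332, minus strand) read 61.8, 61.9 and 64.6 FPKM at 0 Gy and 80.7, 81.7 and 78.3 FPKM at 10 Gy. The groups were far apart compared with their spread, with 0 overlapping libraries. FASN rose by a log2 change of 0.35 (SE 0.033, 95% interval 0.27 to 0.43, adjusted p = 0.00071), a ratio of means of 1.28. Between 8904 and 22609 reads lay behind each of these values. ACACA (ENSG00000278540, chr17:37084988-37406818, minus strand) read 6.72, 8.30 and 7.94 FPKM at 0 Gy and 9.76, 10.3 and 9.57 FPKM at 10 Gy. All irradiated libraries were higher, with the control of replicate 1 below the other controls. Its log2 change was 0.33 (SE 0.071, 95% interval 0.16 to 0.50, adjusted p = 0.0116), and the adjusted p was 0.0505 when genes of any level were tested. Without that control, the log2 change was 0.25 (adjusted p = 0.0082).

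Neither elongase was called. ELOVL5 (ENSG00000012660, chr6:53267398-53349179, minus strand), which lengthens polyunsaturated chains, read 59.6, 58.6 and 60.9 FPKM at 0 Gy and 63.6, 62.2 and 65.9 FPKM at 10 Gy. The groups did not overlap, yet the difference was small, at a log2 change of 0.10 (SE 0.033, 95% interval 0.02 to 0.17, adjusted p = 0.0576). It was called higher under 5 of 11 other settings, and its adjusted p ranged from 0.0023 to 0.113 over them. ELOVL6 (ENSG00000170522, chr4:110045846-110199199, minus strand), which lengthens palmitate to stearate, read 11.4, 11.8 and 12.3 FPKM at 0 Gy and 12.3, 12.0 and 11.6 FPKM at 10 Gy. The groups overlapped, and the log2 change of 0.01 had a 95% interval from -0.08 to 0.11 (adjusted p = 0.815).

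Of the 3 desaturases, SCD was called higher, FADS1 was called lower and FADS2 was not called. SCD (ENSG00000099194, chr10:100347124-100364834, plus strand), which makes the monounsaturated palmitoleate and oleate, read 32.1, 33.3 and 29.7 FPKM at 0 Gy and 36.4, 41.4 and 39.8 FPKM at 10 Gy. All irradiated libraries lay above all controls, that of replicate 1 by the least. SCD rose by a log2 change of 0.30 (SE 0.059, 95% interval 0.16 to 0.44, adjusted p = 0.0087), a ratio of means of 1.24. The pseudogene SCDP1, a near copy that could take reads from it, was at or below 0.0427 FPKM in every library.

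FADS1 (ENSG00000149485, chr11:61799625-61829318, minus strand), the desaturase that makes arachidonate and eicosapentaenoate, read 18.5, 20.4 and 17.8 FPKM at 0 Gy and 15.6, 15.4 and 16.9 FPKM at 10 Gy. All irradiated libraries were below all controls, with the nearest libraries close to each other. FADS1 fell by 0.23 on the log2 scale (SE 0.058, 95% interval -0.36 to -0.09, adjusted p = 0.0205), a ratio of means of 0.845. This call rests on the scaling and on single libraries. The adjusted p was 0.0750 when genes of any level were tested. The change was -0.11 with TPM values (adjusted p = 0.166) and -0.14 with upper quartile scaling (adjusted p = 0.089), and the adjusted p was 0.0710 without the 10 Gy library of replicate 1 and 0.0745 without that of replicate 2. Relative to the median of all genes, the change of FADS1 was -0.19.

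FADS2 (ENSG00000134824, chr11:61792980-61867354, plus strand), the desaturase that acts first on linoleate and linolenate, read 13.1, 12.4 and 11.7 FPKM at 0 Gy and 12.8, 13.9 and 14.6 FPKM at 10 Gy. The groups overlapped by a single irradiated library, and the log2 change of 0.14 (SE 0.058, 95% interval 0.005 to 0.28) had an adjusted p of 0.0973. It was called higher under 4 of 11 other settings. FADS1 and FADS2 lie head to head: the RefSeq start site of FADS1 (chr11:61817003, minus strand) is 800 and 599 bases beyond the start sites of FADS2 (chr11:61816203 and chr11:61816404, plus strand), so that the 2 transcripts run over each other. Their annotated exons share 490 bases, 4.79% of the exon bases of FADS1 and 4.44% of those of FADS2. FADS2 also shares 49 exon bases with FEN1, a flap endonuclease gene on the same strand, at 111 FPKM at 0 Gy and 80.8 FPKM at 10 Gy. The strand setting of the counting is not given in the sources used here, so reads in the shared bases cannot be assigned to either gene.

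SREBF1 (ENSG00000072310, chr17:17810399-17837002, minus strand), the lipogenic transcription factor gene, read 17.9, 16.9 and 16.9 FPKM at 0 Gy and 20.5, 21.4 and 20.3 FPKM at 10 Gy. The groups were well separated. SREBF1 rose by a log2 change of 0.26 (SE 0.037, 95% interval 0.17 to 0.34, adjusted p = 0.0030), a ratio of means of 1.20. It shares 556 exon bases, 6.92% of its own, with RAI1 on the opposite strand, which was at 8.45 FPKM at 0 Gy and 9.76 FPKM at 10 Gy.

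The direction and call of FASN, SCD, SREBF1 and ACSS2 were the same under all 11 other settings of scaling, filter, pseudocount and model, and with each of the 6 libraries left out in turn. The direction of the changes over all genes did depend on the scaling. Of the genes called, 33.4% were higher with FPKM as deposited, 48.7% with median-of-ratios scaling, 63.9% with upper quartile scaling, 50.4% with recovered reads as CPM and 74.5% with TPM. TPM moved the median of all genes by 0.115 on the log2 scale, to 0.08, and against the median gene of the deposited values FASN, ACSS2, ACACA, SCD and SREBF1 changed by 0.39, 0.38, 0.37, 0.34 and 0.29. With TPM, 8 of the 10 were called higher and 0 lower, against 25.7% and 8.79% of all genes tested. With upper quartile scaling 7 were called higher and 0 lower, against 21.1% and 11.9%. With median-of-ratios scaling or recovered reads as CPM 7 were called higher and 1 lower. Of all genes, 16.04% were then higher and 16.88% lower with median-of-ratios scaling, and 19.7% and 19.4% with CPM.

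**Figure D3:**
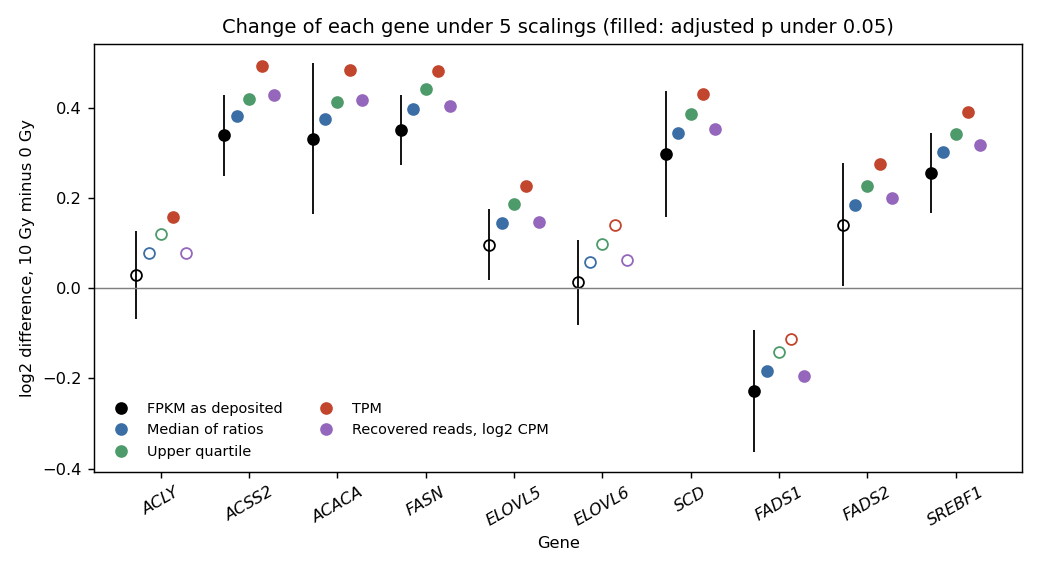
Log2 change (10 Gy minus 0 Gy) of each gene under the scalings tried, 1 colour per scaling; filled points have an adjusted p under 0.05 in limma, the black bars are 95% intervals for FPKM as deposited, and the horizontal line marks 0. FASN, ACSS2, ACACA, SCD and SREBF1 stay above 0 and filled with every scaling shown, and FADS1 stays below 0 but is open with TPM (-0.11) and upper quartile scaling (-0.14).

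Ratios of 2 genes within a library do not depend on the scaling between libraries. FADS1 to FADS2 was 1.41, 1.65 and 1.52 at 0 Gy and 1.22, 1.11 and 1.16 at 10 Gy. The 2 doses did not overlap, and the geometric mean of the ratio went from 1.52 to 1.16, a log2 difference of -0.39. SREBF1 to SREBF2, the gene of the SREBP better known for cholesterol synthesis, went from 0.982 to 1.3, a log2 difference of 0.41. ACSS2 to ACLY went from 0.0993 to 0.127 and ACACA to ACACB, the mitochondrial carboxylase, from 7.35 to 8.52, and both were also without overlap. ELOVL5 to ELOVL6 (5.05 and 5.35) and SCD to FASN (0.505 and 0.488) overlapped between doses. In 2-sided exact permutation tests of the log2 ratios, p was 0.1 for each of the 4 ratios without overlap, the smallest p that 3 libraries against 3 allow, and 0.15 after Benjamini-Hochberg adjustment over the 6 ratios. For ELOVL5 to ELOVL6 the exact permutation p was 0.3 and for SCD to FASN it was 0.5, so with this number of libraries 0 of the 6 could pass 0.05.

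**Figure D4:**
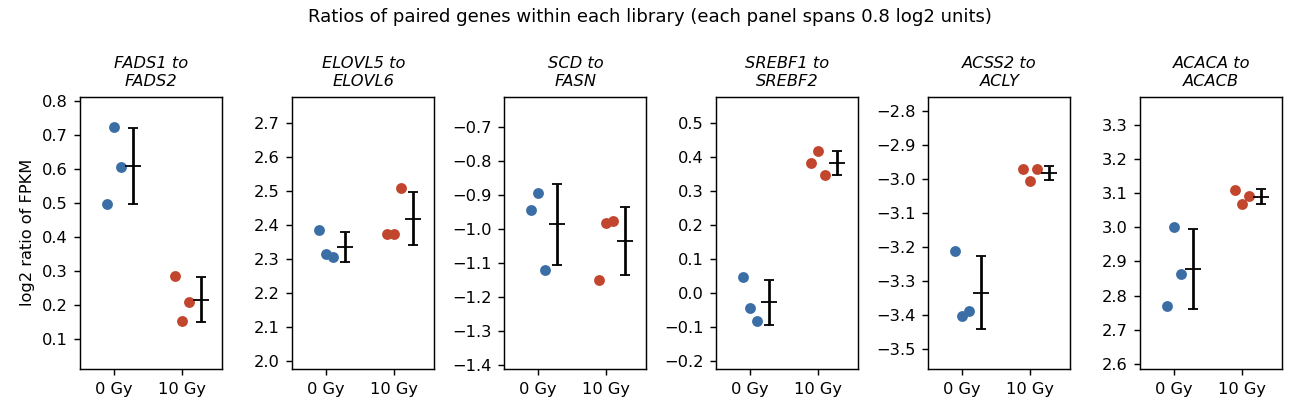
Log2 of the ratio of 2 genes in each library for the 6 ratios tested; coloured points are libraries, black bars are means with SD (n = 3), and every panel spans the same range. FADS1 to FADS2 lies lower in all 3 irradiated libraries and SREBF1 to SREBF2, ACSS2 to ACLY and ACACA to ACACB higher, while SCD to FASN and ELOVL5 to ELOVL6 overlap.

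Among the other synthesis, elongation and desaturation genes, more were called lower than higher with FPKM as deposited, as among all genes tested. Of 27 further genes listed, 19 were tested. Of these, 1 was called higher and 6 lower, against 11.9% and 23.7% of all genes, with a median log2 change of -0.09. SCD5, another stearoyl-CoA desaturase, was the 1 that rose, from 5.98 to 7.60 FPKM (log2 change 0.30, adjusted p = 0.0027). The 3 that fell the most were ELOVL1, an elongase of very long saturated chains, from 44.5 to 32.0 FPKM (log2 change -0.46, adjusted p = 0.00044), MID1IP1, a protein that helps acetyl-CoA carboxylase polymerise, from 17.6 to 14.1 FPKM (-0.30, adjusted p = 0.0092), and FADS3, another gene of the FADS cluster, from 11.6 to 9.32 FPKM (-0.28, adjusted p = 0.0066). ACACB read 1.04 and 1.16 FPKM and was not called (log2 change 0.08, adjusted p = 0.367). With TPM this list had 3 called higher and 3 lower, against 25.7% and 8.79% of all genes. Its median was then 0.01, and that of all genes was 0.08.

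Among 18 tested genes of SREBP processing and lipogenic transcription, 1 was called higher and 10 lower, against 11.9% and 23.7% of all genes. Their median log2 change was -0.14. SREBF2 was at 17.5 FPKM at 0 Gy and 15.9 FPKM at 10 Gy (log2 change -0.13, adjusted p = 0.0142), in the opposite direction to SREBF1, and was not called under 4 of 11 other settings (-0.01 with TPM, adjusted p = 0.825) or without the 10 Gy library of replicate 1 (adjusted p = 0.0605). NR1H3, which encodes the sterol sensor LXR alpha that drives SREBF1 in other tissues, was the 1 that rose, from 1.31 to 1.84 FPKM (log2 change 0.30, adjusted p = 0.0285). Its call was lost without the 0 Gy library of replicate 2 or 3 or the 10 Gy library of replicate 1 or 2, with an adjusted p of up to 0.0986, and when genes of any level were tested (adjusted p = 0.103). USF2, an E-box factor of the FASN promoter, fell from 22.1 to 17.4 FPKM (-0.33, adjusted p = 0.0012), SP1 from 18.8 to 14.9 FPKM (-0.31, adjusted p = 0.0037) and RNF139, an ubiquitin ligase of the endoplasmic reticulum, from 5.21 to 4.13 FPKM (-0.28, adjusted p = 0.0133). The 3 NF-Y subunits, named after their values were seen, were also called lower, at log2 changes of -0.26 for NFYA, -0.15 for NFYB and -0.27 for NFYC. With TPM, NFYA (adjusted p = 0.0866), NFYB (adjusted p = 0.559) and RNF139 (adjusted p = 0.0817) were not called. NFYB lost its call under 6 of 11 other settings. It also lost it without any library but the 0 Gy one of replicate 1, with an adjusted p of up to 0.109. With TPM the list had 3 called higher and 4 lower, against 25.7% and 8.79% of all genes.

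Of 9 tested AMPK subunits and regulators of acetyl-CoA carboxylase, 0 were called higher and 4 lower, against 11.9% and 23.7% of all genes. Their median log2 change was -0.14. With TPM 1 was called higher and 2 lower, against 25.7% and 8.79% of all genes. TRIB3, a pseudokinase that brings acetyl-CoA carboxylase to the ligase COP1, fell from 16.8 to 10.5 FPKM (log2 change -0.63, adjusted p = 0.00044). COP1 was at 9.27 and 8.16 FPKM (-0.17, adjusted p = 0.0327) and lost its call under 6 of 11 other settings, and without the 0 Gy or the 10 Gy library of replicate 1 or of replicate 2, with an adjusted p of up to 0.106. PRKAG2, a regulatory subunit of AMPK, the kinase that phosphorylates and inhibits acetyl-CoA carboxylase, fell from 11.3 to 8.91 FPKM (-0.32, adjusted p = 0.0021).

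Glycerolipid genes act downstream, where fatty acids enter and leave stored lipid. Of 10 glycerolipid genes tested, 4 were called higher and 1 lower, against 11.9% and 23.7% of all genes. Their median log2 change was 0.03. With TPM 4 were higher and 0 lower, against 25.7% and 8.79% of all genes. LPIN3, a phosphatidate phosphatase, rose from 3.80 to 5.67 FPKM (log2 change 0.48, adjusted p = 0.0147), PNPLA2, the main triglyceride lipase, from 31.9 to 44.0 FPKM (0.45, adjusted p = 0.00061), and PNPLA3, a lipase of the same family and a target of SREBP1 in liver, from 1.44 to 2.25 FPKM (0.41, adjusted p = 0.0038). The adjusted p of LPIN3 was 0.0559 without the 10 Gy library of replicate 2 and 0.0665 when genes of any level were tested. SOAT1, which esterifies cholesterol, was at 25.5 and 23.1 FPKM (-0.14, adjusted p = 0.0167) and was not called under 5 of 11 other settings, nor without the 10 Gy library of replicate 2 (adjusted p = 0.0689) or 3 (adjusted p = 0.0529).

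The cholesterol genes, which SREBPs also control, were called in both directions. Of 19 tested, 2 were called higher and 4 lower, against 11.9% and 23.7% of all genes. Their median log2 change was -0.08. With TPM 6 were higher and 1 lower, against 25.7% and 8.79% of all genes. The median was then 0.03, and that of all genes was 0.08. PMVK fell from 24.2 to 17.6 FPKM (-0.44, adjusted p = 0.0029), while MSMO1 at 15.0 and 13.0 FPKM (-0.20, adjusted p = 0.0243) and FDPS at 19.4 and 17.3 FPKM (-0.15, adjusted p = 0.0197) were called lower but not with TPM (adjusted p = 0.318 and 0.544), and lost their calls under 4 and 5 of 11 other settings. The call of MSMO1 was lost without either library of replicate 3, the 0 Gy library of replicate 2 or the 10 Gy library of replicate 1 (adjusted p up to 0.0677), and that of FDPS without either library of replicate 2 or the 10 Gy library of replicate 3 (adjusted p up to 0.0756). The difference between the lists was not tested.

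**Figure D5:**
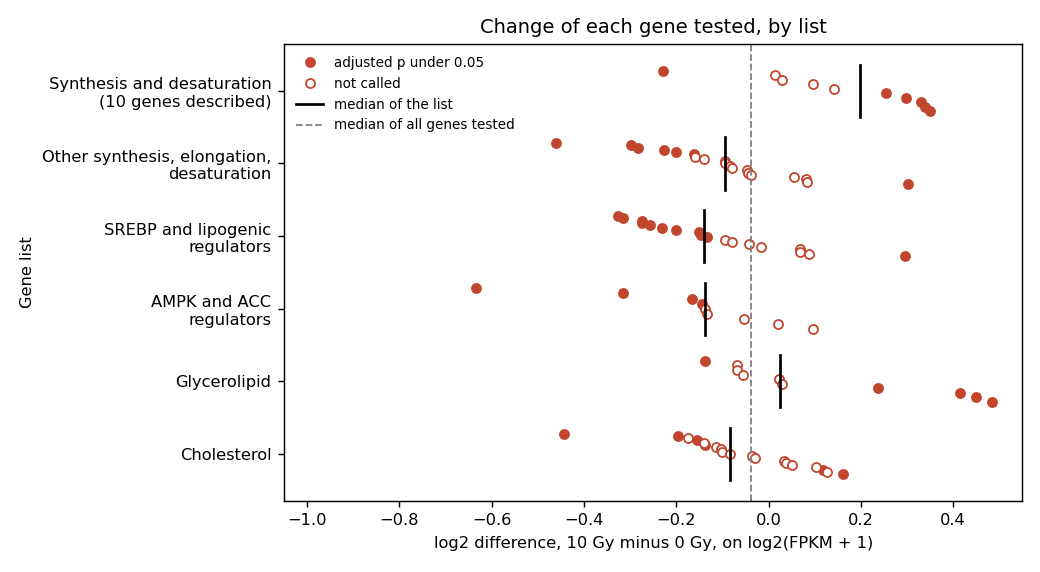
Log2 change (10 Gy minus 0 Gy) of each tested gene of the 10 fatty acid genes and of the 5 other lists; filled points are called in limma, the black bar is the median of the list, and the dashed line is the median of all genes tested (-0.04). The median of the 10 genes is 0.20, that of the glycerolipid list 0.03, and those of the other 4 lists lie between -0.14 and -0.08.

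Across the 6 libraries, the protein-coding genes whose log2(FPKM + 1) ran most like that of FASN were TPCN1, NLGN2 and NDOR1, each with Pearson r of at least 0.996. They were taken among 4583 genes whose mean reached 10 FPKM, of which 155 reached 0.95. For SCD they were TRIB2 (0.995), WASL (0.992) and PI4K2A (0.992), with 51 genes at 0.95 or above. These are descriptions without a test. The 6 points share the 2 doses, so any gene that separates the doses cleanly scores high.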

How the data were processed

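RNA was measured in 6 MDA-MB-231 libraries, 3 at each dose, and samples were grouped by the dose in their labels. The authors deposited FPKM values from polyA libraries, and the submitters' processing notes name HISAT2 and GRCh38. The counting program and strand setting are not given in the sources used here. Gene lengths equal the summed exons of GENCODE 29 for all 58735 genes. FPKM times gene length and the library's implied depth came out as whole reads (within 0.05) for 100% of values above 0. These recovered reads served for depth and 1 alternative.

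Doses were compared with limma 3.58.1 in R 4.3.3, using 2-sided moderated tests with an intensity trend on log2(FPKM + 1). The fit took in 12128 genes whose mean reached 1 FPKM, and p-values were adjusted by Benjamini-Hochberg over all of them. Fold changes on this scale understate the change of low genes. The procedure was run on simulated libraries in which a small share of genes changed, up or down at random. They held no scaling that moves with the dose, so that run cannot tell how such a scaling affects the calls. Each of the 10 genes had 584 or more reads in each library. Counting error was not set against the spread between 3 libraries, and it may be as large or larger for genes with few reads. ACSS2, for instance, had 1474, 894 and 1064 reads at 10 Gy. Its SD there was 0.0295 FPKM at a mean of 9.12 FPKM, so near-equal libraries are not read here as precision. Alternatives covered the pseudocount, the filter, the scaling, the eBayes settings, the replicate number as a block and each library left out. The genes, lists and tests were chosen with earlier results of these data known. Of each list, up to 3 called genes with the largest rise and up to 3 with the largest fall are named, with those used in ratios and, for FASN and SCD, the 3 most correlated genes. Some genes that this rule selects are not reported here. Motifs were searched in 35116 RefSeq windows. MAFF knockdown libraries were not analysed here. Plots were made in matplotlib 3.10.9 under Python 3.11.15.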

Additional observations from a re-analysis of the deposited data

How the results depend on the processing

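Over 11 other settings of scaling, filter, pseudocount, model and block, FASN, SCD, SREBF1 and ACSS2 kept their direction and their call. Between 4 and 8 of the 10 genes were called, against 9.20% to 49.7% of all genes tested. ACACA and FADS1 lost their calls when genes of any level were tested (adjusted p = 0.0505 and 0.0750), and FADS1 also with TPM and upper quartile scaling. ELOVL5 became called under 5 settings, FADS2 under 4 and ACLY under 1. The median log2 change of the 10 genes lay between 0.20 and 0.33 over these settings. With each library left out in turn, 2651 to 3975 genes were called instead of 4317, 2711 without the 10 Gy library of replicate 1 and 2651 without that of replicate 2 (each fit with fewer samples), and 5 or 6 of the 10 genes. Over the same 6 fits the log2 change of ACLY ran from -0.0062 to 0.0680, that of ELOVL6 from -0.0101 to 0.0407 and the log2 ratio of SCD to FASN from -0.117 to 0.0080, each turning its direction around a value near 0. Libraries with the same replicate number did not deviate together (correlations of -0.040, -0.035 and -0.101). A weak shared effect could go unseen, so this does not tell whether they were prepared in pairs. With the replicate number as a block 3503 genes were called, and the count of the 10 genes called stayed at 6. Among the genes named from the lists, the block ended the calls of SOAT1, COP1 and NFYB (adjusted p = 0.0518, 0.0711 and 0.0783). With 3 libraries a dose, the SEs of 0.033 to 0.071 on the log2 scale set the size of change that could be told from 0 for the 10 genes, and the exact tests of ratios could not go below 0.1.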
